A study of Macaca mulatta with 4 samples.

Results

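CXCL12 and its receptors CXCR4 and ACKR3 were followed in single-nucleus RNA sequencing of the fetal rhesus macaque cerebellum. The 3 genes were taken by symbol from the 30807 genes of the count tables. CXCR4 (ENSMMUG00000011918) and ACKR3 (ENSMMUG00000010793) carried their symbols in the tables. The row of CXCL12 (ENSMMUG00000012181) carried only its Ensembl identifier and was named through a reference list of identifiers and symbols. Flash-frozen cerebellar hemispheres came from 2 Control fetuses without intervention, a female and a male of 130 days of gestation, and from 2 LPS fetuses, a female of 131 days and a male of 133 days. LPS fetuses were delivered 5 days after 1 mg of lipopolysaccharide, a bacterial inflammatory stimulus, had been injected into the amniotic fluid to model chorioamnionitis. Each fetus gave 1 library. Because both LPS fetuses were older than both Control fetuses, exposure and age cannot be told apart, and Control fetuses had no sham injection.

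CXCL12 is a secreted chemokine made by meningeal and vascular cells around the developing cerebellum. CXCR4 is its signalling receptor, and on granule cell precursors it holds dividing cells in the external granule layer beneath the meninges. ACKR3 binds CXCL12 without classical G protein signalling and removes it from the extracellular space, which shapes the gradient that migrating neurons and interneurons meet.

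The counts are unique molecular identifiers (UMIs), each standing for 1 captured RNA molecule, with intronic reads included. The libraries held 34282015 to 61665690 UMIs. Barcodes with 500 or more genes were taken as nuclei. There were 9256 in the female Control, 8621 in the male Control, 6905 in the female LPS and 7805 in the male LPS library, 32587 in all. Values below are given in this order of libraries unless named, as CPM, the UMIs of the gene per 1000000 UMIs of the nuclei in question. A CPM from 3' counts compares 1 gene between nuclei and libraries, and levels were not compared between genes. Pairs of libraries shared 16 to 22 nucleus barcodes, where 7.93 to 11.7 would be shared if drawn at random from the barcode list.

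The 2 female libraries stood apart from the 2 male libraries in several ways that did not follow exposure. A nucleus held a median of 4506 and 4062 UMIs in the female Control and female LPS library, against 1882 and 2308 in the male Control and male LPS library. Mitochondrial genes made up 1.42 and 1.93% of the UMIs of empty droplets in the female libraries and 0.0317 and 0.0337% in the male libraries. In nuclei their share was 0.225 and 0.212% against 0.0196 and 0.0256%. Levels below are therefore given by library, and values pooled or averaged over libraries are named as such.

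Clustering, with the 3 genes and their pathway left out of the clustering features, gave 23 clusters. They were grouped into classes by marker lists, and each class name is to be read as "like" that cell type. The granule lineage held 22384 nuclei in 5 stages called precursor, committing, migrating, maturing and mature. Fibroblasts, the meningeal class, held 129, 203, 148 and 34 nuclei, and all 9 of their markers, such as COL1A1 and DCN, were detected in every library, summing to 6283 to 8787 CPM. Endothelial cells held 71, 73, 46 and 30 nuclei, and their 8 markers summed to 7702 to 10024 CPM, with 1 marker at 0 in the male Control library. A cluster of 223 nuclei scored highest on the PAX2+ interneuron list but was led by both NXPH1 and the molecular layer markers SORCS3 and INPP4B, so it is called the NXPH1 cluster and is not given a type (it is labelled NXPH1 interneurons in the plots). A cluster of low UMI number (2409 nuclei, 1845 of them from the male LPS library) and a cluster mostly of doublets (765 nuclei) were left unnamed and enter only the sums over all nuclei. In those sums, fewer cells of a type and less RNA per cell cannot be told apart.

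Among the named classes CXCL12 had its highest mean level in fibroblasts and endothelial cells, and most of its UMIs lay in granule nuclei of the late stages. In all nuclei it had 1281, 390, 1090 and 234 UMIs, or 28.1, 19.4, 35.3 and 10.6 CPM. Fibroblasts had 371, 81.6, 187 and 104 CPM of CXCL12, a mean of 186 ± 132 (SD, n = 4), from 235, 55, 134 and 13 UMIs. The female Control library was highest, and its exact 95% Poisson interval of 325 to 422 CPM did not overlap those of the other 3 libraries. A CXCL12 UMI was found in 64.3, 15.8, 43.9 and 29.4% of fibroblasts. After each nucleus was thinned to 1000 UMIs these shares were 28.8, 7.81, 13.01 and 12.5%, and the female Control library remained the highest. In PAX2+ interneurons, a class with little CXCL12, the shares without thinning were 2.96, 0.440, 5.57 and 0%, the last of 276 nuclei, which allows up to 1.09% of nuclei with a UMI at this depth. Median UMIs per nucleus were alike in these classes, at 3248 to 4639 in fibroblasts and 2351 to 4828 in PAX2+ interneurons.

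Endothelial cells, the lining of the vessels, had 34.6, 103, 68.8 and 136 CPM of CXCL12, a mean of 85.4 ± 43.5 (SD, n = 4), from 13 to 24 UMIs a library. In the female Control library they were below maturing and mature granule nuclei and the NXPH1 cluster. With classes set by a marker score of each nucleus in place of clusters, the endothelial mean was 29.995 CPM, below the mean of 40.8 CPM in maturing granule nuclei set by clusters. The place of endothelial cells thus differed with the library, and their mean level with how classes were set. The marker score does not separate granule stages, so the classes were not placed in order under it. Fibroblasts were above endothelial cells in both female libraries. In both male libraries they were below, but from only 55 against 22 UMIs in Control and 13 against 13 UMIs in LPS. These counts do not settle the order of these classes in the male libraries. Mural cells, the contractile cells of the vessel wall, numbered 31 nuclei in all and held 2 CXCL12 UMIs, too few to place them in this order.

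**Figure D1:**
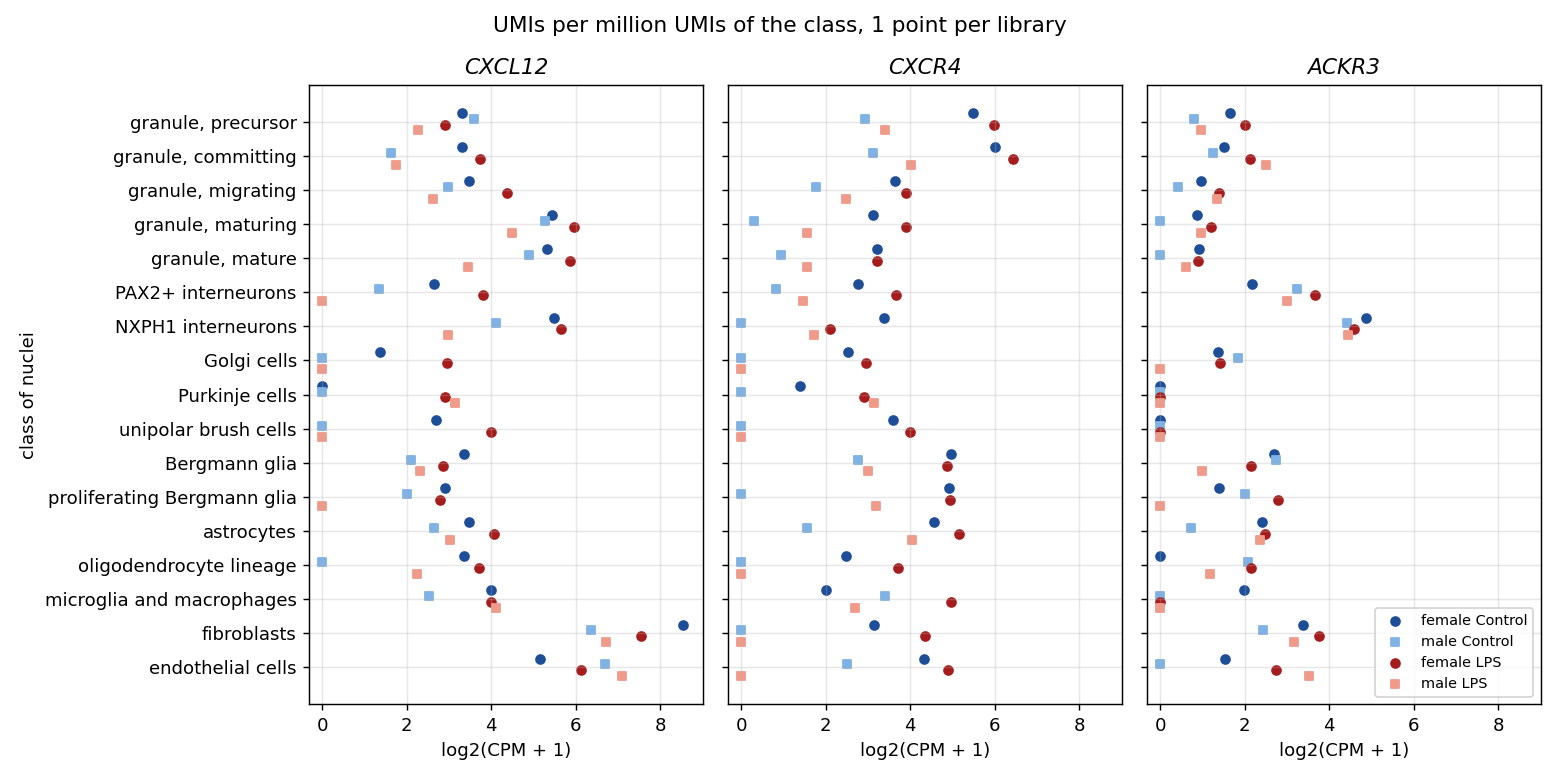
Level of CXCL12, CXCR4 and ACKR3 in each class of nuclei, as log2(CPM + 1) on the horizontal axis, with 1 point for each of the 4 libraries (circles female, squares male, blue Control, red LPS). CXCL12 had its highest means in fibroblasts and endothelial cells, although in the female Control library endothelial cells lay below maturing and mature granule nuclei and the NXPH1 cluster, CXCR4 in the early granule stages of the female libraries, and ACKR3 in the NXPH1 cluster.

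Within the granule lineage CXCL12 was low in the early stages and higher in the late ones. Maturing granule nuclei had 42.6, 37.8, 61.4 and 21.6 CPM of CXCL12. Mature granule nuclei had 38.9, 28.9, 57.5 and 9.85 CPM. Precursors had 8.87, 11.0, 6.53 and 3.86 CPM. Each library showed more CXCL12 in the late than in the early part of the lineage. Maturing and mature nuclei together were above precursor and committing nuclei together by a factor of 4.65, 5.39, 6.25 and 4.64. When the free RNA estimated from empty droplets was subtracted, the CXCL12 mean over libraries was 39.5 CPM in maturing, 3.38 CPM in precursor and 0.0867 CPM in committing nuclei. The male Control library kept 10.6 CPM in precursors.

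Granule nuclei held 67.0, 66.2, 72.0 and 68.8% of the CXCL12 UMIs in nuclei. They numbered 6805 of 9256, 6060 of 8621, 5126 of 6905 and 4393 of 7805 nuclei, the lowest share being that of the male LPS library. Pooled over libraries they made up 68.7% of nuclei. The maturing stage held 39.7, 40.3, 39.3 and 38.0% of the CXCL12 UMIs. Fibroblasts held 18.3, 14.1, 12.3 and 5.56% of them with 129, 203, 148 and 34 nuclei, 1.58% of the pooled nuclei. Endothelial cells held 1.41, 5.64, 2.20 and 5.56% with 71, 73, 46 and 30 nuclei, 0.675% of the pooled nuclei. Both classes had their fewest nuclei in the male LPS library. Per maturing granule nucleus the CXCL12 signal was sparse, with a UMI in 17.4, 6.27, 21.5 and 5.03% of nuclei. The NXPH1 cluster had 43.9, 16.3, 49.5 and 6.88 CPM of CXCL12 from 3 to 15 UMIs a library. Its level was thus higher in the 2 female libraries, as it was in maturing granule nuclei.

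**Figure D2:**
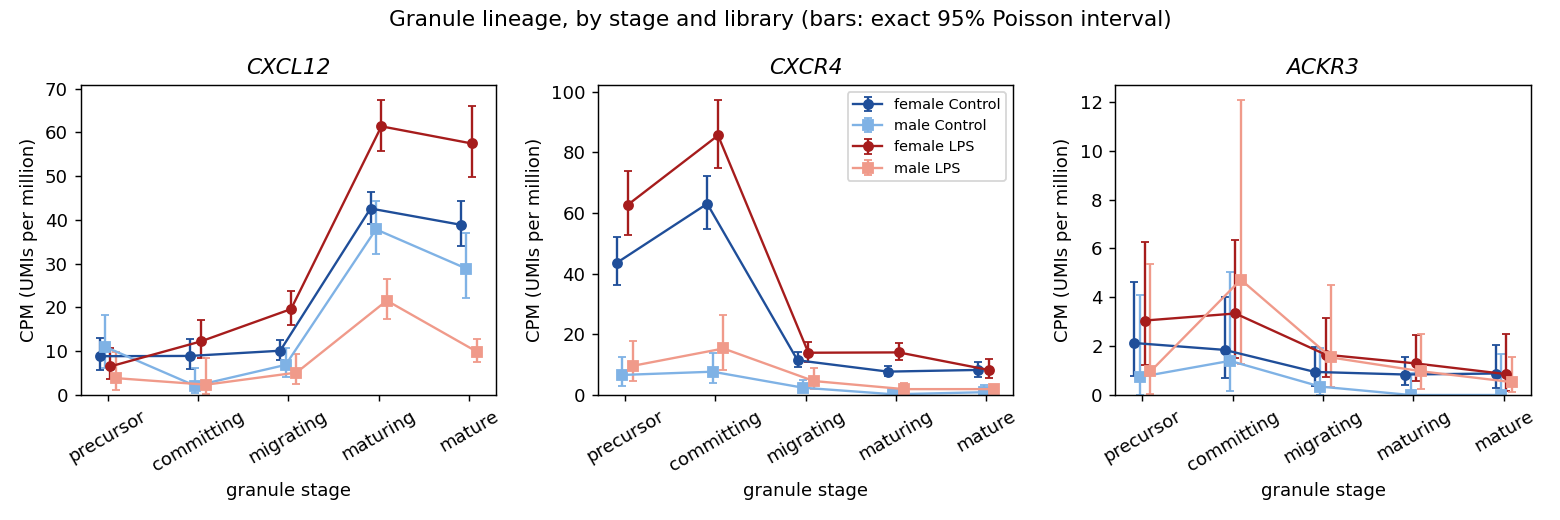
Level of CXCL12, CXCR4 and ACKR3 over the 5 stages of the granule lineage, in CPM on a linear axis, with 1 line per library and exact 95% Poisson intervals as bars, which cover counting error only. CXCL12 was higher in maturing and mature than in precursor and committing nuclei in all 4 libraries, and CXCR4 followed the opposite order.

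Among the named classes with 50 or more nuclei, CXCR4 had its highest mean level over libraries in committing and precursor granule nuclei. These stages were first and second in both female libraries. In the male Control library microglia and macrophages were first, at 9.55 CPM from 2 UMIs, and in the male LPS library astrocytes were first. Committing nuclei had 63.1, 7.69, 85.6 and 15.3 CPM of CXCR4, from 205, 11, 231 and 13 UMIs. Precursors had 43.6, 6.62, 62.7 and 9.64 CPM, from 123, 9, 144 and 10 UMIs. Committing nuclei were above precursors in every library, although their intervals overlapped in the male libraries. ATOH1, on the precursor marker list, also had its highest mean in committing nuclei, at 3.88 CPM. Whether committing nuclei had left the cell cycle was not tested. In mature granule nuclei CXCR4 was at 8.27, 0.917, 8.25 and 1.94 CPM. Precursor and committing nuclei together were above maturing and mature nuclei together by a factor of 6.85, 15.1, 6.20 and 6.30, the second from only 3 UMIs in the late nuclei. The late level was at or near that of free RNA, which was estimated from empty droplets at 9.16, 0.632, 10.6 and 2.08 CPM of CXCR4 in mature nuclei. With free RNA subtracted, CXCR4 was 0, 0.319, 0 and 0 CPM in mature and 0, 0, 2.60 and 0 CPM in maturing nuclei, so the size of these factors depends on the free RNA.

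A CXCR4 UMI was found in 19.5, 1.37, 22.7 and 3.16% of committing nuclei, at medians of 3452, 1567, 3138 and 2060 UMIs per nucleus. Mature granule nuclei, which had more UMIs per nucleus at 5234, 2128, 4855 and 2952, gave 4.26, 0.109, 4.10 and 0.657%. The stage with fewer UMIs per nucleus thus had the higher share. After thinning to 1000 UMIs the shares in committing nuclei were 5.69, 0.290, 9.04 and 1.19%. Precursors held 14.9, 18.8, 17.9 and 8.85% of the CXCR4 UMIs of each library, and committing nuclei 24.9, 22.9, 28.7 and 11.5%. Over the 4 libraries these stages made up 4.80 and 8.93% of the nuclei. In the male LPS library, with 212 precursors and 348 committing nuclei of 7805, their shares of nuclei were lower than these.

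Outside the granule lineage CXCR4 was found in glia. Bergmann glia, the radial glia along which granule cells migrate, had 30.03, 5.75, 28.4 and 7.02 CPM. Astrocytes had 22.7, 1.96, 34.7 and 15.4 CPM. Bergmann glia were below committing nuclei in every library, and astrocytes in all but the male LPS library, where 15 UMIs placed them level with committing nuclei. PAX2+ interneurons, the migrating inhibitory neurons of the white matter, had 5.75, 0.774, 11.6 and 1.76 CPM of CXCR4, at or below the level of mature granule nuclei in 3 of the 4 libraries. Microglia and macrophages had 12 CXCR4 UMIs in all, 8 of them in the female LPS library. With free RNA subtracted, the mean over libraries was 38.9 CPM in committing nuclei, and PAX2+ interneurons reached at most 0.199 CPM in any library.

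ACKR3 was the sparsest of the 3 genes, with 91, 35, 98 and 46 UMIs in nuclei, and it was highest in the NXPH1 cluster. There it had 28.2, 20.4, 23.1 and 20.6 CPM, a mean of 23.1 ± 3.64 (SD, n = 4), from 9, 5, 7 and 9 UMIs. In each library this level was the first in order among the 17 classes with 50 or more nuclei. The cluster made up 0.684% of nuclei over the 4 libraries, with 37, 69, 41 and 76 nuclei, and held 9.89, 14.3, 7.14 and 19.6% of the ACKR3 UMIs. PAX2+ interneurons had 3.54, 8.51, 11.6 and 7.02 CPM and held 8.79, 31.4, 17.3 and 17.4% of the ACKR3 UMIs. Fibroblasts had 9.48, 4.45, 12.5 and 7.98 CPM, a range that overlapped that of PAX2+ interneurons, so these neighbours did not differ beyond their spread. The fibroblast mean of ACKR3 was 8.62 CPM, and 4.62 CPM with classes set by the marker score.

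ACKR3 was sparse in the granule lineage, at 1.09, 0.333, 1.77 and 1.10 CPM. Free RNA was estimated to account for 0.896, 0.526, 1.71 and 0.914 CPM there, and 0.215, 0, 0.0634 and 0.230 CPM were left after subtraction. Committing nuclei, the stage with the highest mean of CXCR4, had 1.85, 1.40, 3.34 and 4.72 CPM of ACKR3 from 6, 2, 9 and 4 UMIs, and 0.790, 1.02, 1.48 and 4.74 CPM with free RNA subtracted. Maturing and mature nuclei were left with 0 to 0.109 CPM of ACKR3 in any library. An ACKR3 UMI was found in 0 of 130 Purkinje cells and 0 of 77 unipolar brush cells, which allows up to 2.31 and 3.90% of nuclei with a UMI over the pooled libraries and sets no limit on the share that expresses the gene. Bergmann glia had 5.46, 5.75, 3.41 and 1.00 CPM. Nuclei with a UMI of both receptors numbered 36, of 1597 with CXCR4 and 254 with ACKR3. CXCR4 was thus found in 14.2% of the nuclei with ACKR3 and in 4.90% of all nuclei. By library these shares were 13.8 and 7.99% in the female Control, 0 of 34 nuclei and 0.510% in the male Control, 21.3 and 10.3% in the female LPS and 11.4 and 1.32% in the male LPS library. The share among nuclei with ACKR3 was the higher in 3 of the 4 libraries, and UMIs per nucleus were not matched. A CXCL12 and a CXCR4 UMI met in 127 nuclei. CXCL12 was found in 7.84, 9.09, 9.01 and 0.971% of the nuclei with CXCR4 and in 10.4, 3.75, 12.4 and 2.49% of all nuclei. The share among nuclei with CXCR4 was the lower in 3 of the 4 libraries, and in the male Control library it rested on 4 nuclei.

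For each gene the 5 genes with the most alike profile over the 17 classes with 50 or more nuclei were taken among 14135 genes, by Pearson correlation of log2(CPM + 1). The points share libraries and depth, so the correlations are descriptions. ADGRA2 (r = 0.863), SNAI2 (0.838), IGFBP3 (0.826), KCP (0.826) and FGD5 (0.818) were closest to CXCL12. The first 4 were highest in fibroblasts, and FGD5 in endothelial cells. CXCR4 was closest to NELFCD (0.923), PLIN3 (0.902), PRDX4 (0.899), TGIF2 (0.895) and XPR1 (0.892). All of these were highest in precursor or committing granule nuclei. LMO4 (0.846), NIPSNAP3B (0.790), OCEL1 (0.770), SLC6A4 (0.765) and ENSMMUG00000046467 (0.745) were closest to ACKR3, and all were highest in the NXPH1 cluster.

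In empty droplets, the barcodes of low UMI number taken to hold free RNA, the 3 genes were also present. CXCR4 and ACKR3 were richer there than in nuclei in every library. These barcodes had medians of 300, 196, 226 and 496 UMIs. The last stood beside a median of 763 UMIs in the unnamed cluster of low UMI number of the male LPS library. Whether some of these barcodes held damaged nuclei was not tested, and the free RNA estimates rest on them. Empty droplets had 127, 5.90, 191 and 13.4 CPM of CXCR4, which was 7.04, 2.47, 7.33 and 2.62 times its level in nuclei. CXCL12 had 103, 14.8, 152 and 14.0 CPM, or 3.65, 0.761, 4.30 and 1.31 times its level in nuclei. ACKR3 had 10.8, 4.13, 24.4 and 4.65 CPM, or 5.41, 2.37, 7.67 and 2.23 times its level in nuclei. For each gene, both female libraries were above both male libraries in the empty droplets. Barcodes under 500 genes held 54.9% of all CXCL12 UMIs, 72.7% of CXCR4 UMIs and 69.6% of ACKR3 UMIs over the 4 libraries.

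**Figure D3:**
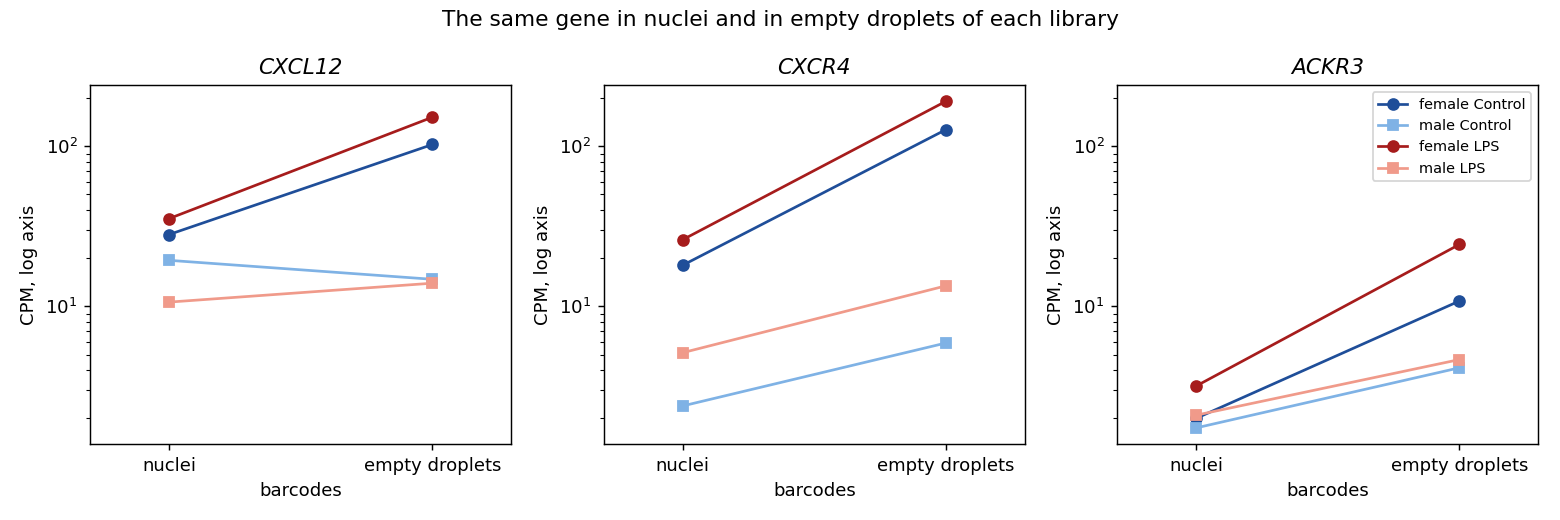
CPM of each gene in nuclei and in empty droplets of the same library, on a log axis, with 1 line per library. CXCR4 and ACKR3 were above their nuclear level in the empty droplets of every library, and both female libraries (circles) were above both male libraries (squares) in the droplets for all 3 genes and in nuclei for CXCL12 and CXCR4.

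CXCR4 differed between the female and the male libraries. Over all nuclei CXCR4 had 18.1, 2.39, 26.1 and 5.13 CPM, and the female libraries did not overlap the male ones. This comparison was chosen after the values were seen. With exposure in the model, CXCR4 was higher in the female libraries by 2.69 on the log2 scale (SE 0.29, adjusted p = 0.0247, edgeR) in all nuclei, 2.78 (SE 0.31, adjusted p = 0.00135, edgeR) in precursors and 2.81 (SE 0.28, adjusted p = 0.000868, edgeR) in committing nuclei. Of all genes tested, 27.9% were called in this comparison of all nuclei, 32.6% in precursors and 27.9% in committing nuclei, so a call was common. With a library left out, exposure could not be kept in the model. Without the female LPS library the difference in all nuclei was 2.36 with an adjusted p of 0.131, while DESeq2 gave 2.37e-08, the lowest over the alternatives.

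CXCL12 showed the same split in all nuclei, higher in the female libraries by 1.20 on the log2 scale (SE 0.30, adjusted p = 0.0650, edgeR). This call was lost without the female Control library (1.29, adjusted p = 0.147) and without the female LPS library (1.04, adjusted p = 0.233), with estimates near the reported one. Adjusted p was 0.00754 to 0.233 over the alternatives. In precursors the CXCL12 difference was 0.15 (SE 0.51, adjusted p = 0.851, edgeR). In committing nuclei it was 2.25 (SE 0.60, adjusted p = 0.0382, edgeR), a call lost without the male Control library (2.16, adjusted p = 0.123) and without the female LPS library (2.07, adjusted p = 0.2498), and for which DESeq2 gave no adjusted p. With free RNA subtracted, CXCL12 in committing nuclei was 0, 0.347, 0 and 0 CPM, so no female library was above a male one. In fibroblasts the difference was 1.69 (SE 0.38, adjusted p = 0.103, edgeR), with 1.52% of all genes called, and its adjusted p was 0.000335 to 0.753 over the alternatives. In endothelial cells the estimate was of the other sign, with a log2 difference of -1.17 (SE 0.43, adjusted p = 0.286, edgeR) and 1.42% of all genes called. For ACKR3 in all nuclei it was 0.47 (SE 0.39, adjusted p = 0.431, edgeR). Sex, the mitochondrial share, the UMIs per nucleus and the level of the genes in empty droplets moved together here and cannot be told apart with 1 female and 1 male library per group. The committing markers in committing nuclei also summed higher in the female libraries, at 7881, 4072, 8350 and 5528 CPM. The PAX2+ interneuron markers in their class went the other way, at 6274, 10813, 5661 and 11620 CPM. A part of class make-up in the CXCR4 difference was not tested. With free RNA subtracted, CXCR4 in committing nuclei was 55.5, 7.93, 76.3 and 15.9 CPM, with both female libraries above both male ones. In migrating nuclei it was 0.419, 1.95, 0.296 and 2.90 CPM, with both male libraries above both female ones. The subtraction rests on an estimated share of free RNA, and free RNA as a source of the difference was not tested.

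Control and LPS libraries were compared to ask whether CXCL12 signalling in the cerebellum differed 5 days after exposure. UMIs were summed per fetus, and a gene was called where its adjusted p was under 0.1 and its log2 fold change was beyond 0.25 in either direction. These cut-offs were taken from the study, which gives no base for its logarithm, and were applied here on the log2 scale to sums per fetus. None of the 3 genes was called in any fit. In all nuclei edgeR called 0 of 16138 genes (0%), with 37 genes at an unadjusted p under 0.05, and DESeq2 called 0.

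Over all nuclei the log2 fold change of LPS over Control was -0.05 (SE 0.64) for CXCL12, 0.55 (SE 1.19) for CXCR4 and 0.50 (SE 0.57) for ACKR3, each with an adjusted p of 1.00 in edgeR. The standard error was above the estimate for each gene. These fits had no term for sex, so the spread within groups includes the difference between female and male libraries. The sign of the CXCL12 estimate changed without the female Control library (0.34) and without the male LPS library (0.57). The sign of the CXCR4 estimate changed without the male Control library (-0.26) and without the female LPS library (-1.05). Each fit with a library left out had no term for sex and left the sexes unbalanced between the groups. CXCR4 was higher in the female libraries by 2.69 on the log2 scale, so its changes of sign cannot be told apart from that difference. The estimate with sex as a replicate block is given with the processing below. Within each sex the LPS library had the higher CXCR4 level over all nuclei, by 0.51 on the scale of log2(CPM + 1) in the female and 0.86 in the male pair, and these are single pairs of fetuses with no test.

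**Figure D4:**
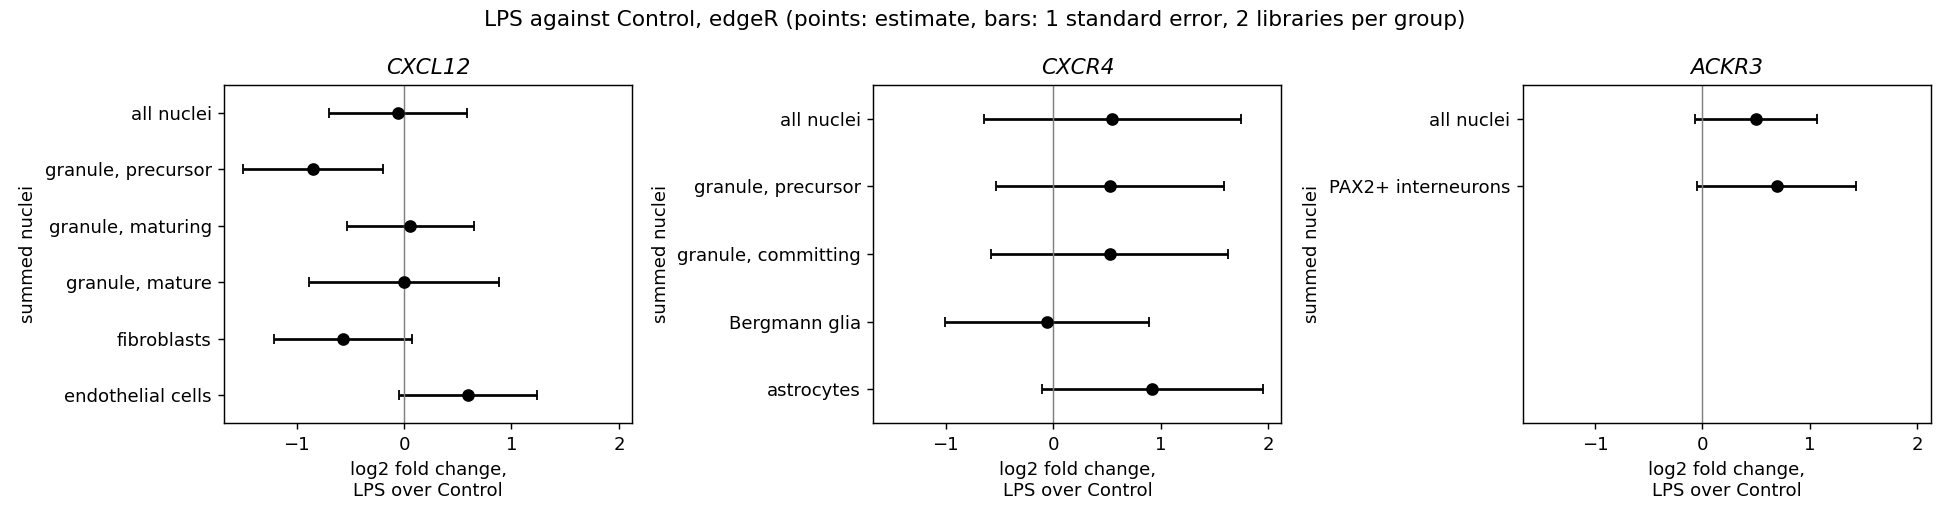
Log2 fold change of LPS over Control for each gene in all nuclei and in the classes described in the text, from edgeR, as points with bars of 1 standard error (2 libraries per group). All bars cross 0 except that of CXCL12 in precursors, whose level was near or below the free RNA estimate in both female libraries. No estimate had an adjusted p under 0.999.

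In the source classes, CXCL12 had a log2 fold change of -0.57 (SE 0.65, adjusted p = 1.00, edgeR) in fibroblasts. It was lower in the female LPS than in the female Control library and higher in the male LPS than in the male Control library, and without the female Control library the estimate was 0.93. In endothelial cells the CXCL12 estimate was 0.60 (SE 0.64, adjusted p = 0.999, edgeR), with both LPS libraries above the Control library of their own sex. That estimate was 0.02 without the female Control library and 1.45 without the male Control library, so its size rested on single libraries. Fibroblasts and endothelial cells had 0 of 8645 (0%) and 0 of 5624 (0%) genes called by edgeR, with 163 and 49 at an unadjusted p under 0.05. DESeq2 called 4 genes in fibroblasts and 0 in endothelial cells.

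In the target classes, CXCR4 had a log2 fold change of 0.53 (SE 1.06, adjusted p = 1.00, edgeR) in precursors and 0.52 (SE 1.11, adjusted p = 1.00, edgeR) in committing nuclei. In both stages each LPS library was above the Control library of its own sex, and Control and LPS libraries overlapped. On the scale of log2(CPM + 1) the rise in precursors was 0.51 in the female and 0.48 in the male pair. In committing nuclei it was 0.43 and 0.91, and these are single pairs of fetuses with no test. Without the female LPS library the estimates were -1.47 and -1.29, and without the male Control library -0.24 and -0.28. As over all nuclei, these fits had no term for sex. Their signs cannot be told apart from the difference between female and male libraries. CXCR4 in astrocytes had an estimate of 0.92 (SE 1.03) and in Bergmann glia of -0.06 (SE 0.95), with an adjusted p of 1.00 in both. ACKR3 in PAX2+ interneurons had an estimate of 0.69 (SE 0.74, adjusted p = 1.00, edgeR), with the female LPS library highest and the female Control library lowest. EdgeR called 0 of 10864 genes (0%) in precursors, 0 of 11092 (0%) in committing nuclei and 0 of 9917 (0%) in PAX2+ interneurons, with 23, 50 and 23 at an unadjusted p under 0.05, and DESeq2 called 0 in each.

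In late granule nuclei CXCL12 had a log2 fold change of 0.06 (SE 0.59, adjusted p = 1.00, edgeR) in the maturing stage and 0.00 (SE 0.89) in the mature stage. The female LPS library was above and the male LPS library below the Control library of the same sex. Without the male Control library the maturing estimate was -0.12, and without the female LPS library it was -1.0. In precursors the CXCL12 estimate was -0.85 (SE 0.65, adjusted p = 1.00, edgeR), from 25, 15, 15 and 4 UMIs. With free RNA subtracted, CXCL12 in precursors was 0.765, 10.6, 0 and 2.16 CPM. EdgeR called 0 of 12342 genes (0%) in maturing nuclei, with 31 at an unadjusted p under 0.05, and DESeq2 called 2. ACKR3 passed the filter on low counts only in sums over all nuclei, over the granule lineage and over PAX2+ interneurons, and none of the 3 genes passed it in Golgi cells, Purkinje cells, oligodendrocyte lineage, or microglia and macrophages.

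The wider pathway was taken as 82 symbols of ligand modulators, binding partners, G proteins, desensitising and trafficking proteins, effectors, other chemokines and their receptors, and regulators of meningeal or granule cell guidance. In all nuclei 61 of them passed the filter, 0 were called by edgeR in either direction, 0 had an unadjusted p under 0.05, and DESeq2 called 0 with 2 at an unadjusted p under 0.05. Their median log2 fold change was -0.05, beside 0.01 over all genes tested. FOXC1 and TBX18, transcription factors of the meninges, were highest in fibroblasts at a mean of 132 and 282 CPM. CX3CR1, the microglial fractalkine receptor, was highest in microglia and macrophages at 340 CPM. SDC2, a heparan sulphate proteoglycan, was highest in committing granule nuclei at 402 CPM, the class in which CXCR4 had its highest mean.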

How the data were processed

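Nuclei from 4 fetal cerebella, 1 library per fetus, were sequenced by the authors with 10x 3' chemistry, and reads were mapped to Mmul_8.0.1 with introns included. The protocol and the deposited file headers name different versions of Cell Ranger; the processing notes give version 4. The deposited matrices hold raw UMI counts for every barcode, not normalized, filtered or corrected for ambient RNA. Of the 30807 genes, 9483 carry no symbol and 997 of these were named through a reference list, CXCL12 among them. The 3 genes, the gene lists and the comparisons were chosen with earlier results of these data known. The genes named beside the 3 are pathway genes that are needed for a role and, for each of the 3, the 5 genes with the most alike profile over classes (at least 5 CPM in some class).

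Barcodes with 500 or more genes were kept, integrated with Seurat 5.3.0 anchors (R 4.3.3, 2000 features, 30 dimensions, resolution 0.5) and named from marker lists where at least 3 markers were raised. Doublets were called by Scrublet in scanpy 1.11.5 (505, 637, 368 and 440 barcodes), kept, and removed in an alternative. In both male libraries its own threshold called under 0.1% so that of the female libraries (their median) was applied. Free RNA was profiled in droplets ranked after 3 times the number of nuclei. UMIs summed per fetus and class (at least 10 nuclei in every library) entered edgeR 4.0.16 (quasi-likelihood, filterByExpr, TMM, Benjamini-Hochberg over all genes tested), with DESeq2 1.42.0 as the other tool. The test was tested on simulated data. Standard errors are those implied by the quasi-likelihood F. Intervals are exact at 95% and cover counting error only. Adjusted p-values of LPS against Control measure the spread between 2 fetuses per group, 1 female and 1 male. Without a term for sex, this spread includes the difference between female and male libraries. In the reported comparison of female with male libraries they measure the spread left with exposure in the model. The alternatives were library totals, no filter, each library left out, sex as a replicate block, nuclei with 1000 or more genes, doublets removed, at most 5% mitochondrial UMIs, classes from a marker score and subtraction of free RNA. No sequence of the 3 genes was used here.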

Additional observations from a re-analysis of the deposited data

Results flagged for a closer look

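The LPS minus Control difference went opposite ways in the female and the male pair of libraries for 10 of the 24 gene and class combinations that passed the filter on low counts, on the scale of log2(CPM + 1), and the difference between the pairs was not tested. The share of all genes that did so was not counted, so the number is not read as a trait of these genes. The combinations are not independent, because all nuclei, the granule lineage and its stages share UMIs. CXCL12 in all nuclei was 0.32 in the female and -0.81 in the male pair, and CXCL12 in the granule lineage was 0.43 and -0.81. By stage CXCL12 was 0.89 and -0.37 in migrating, 0.52 and -0.78 in maturing and 0.55 and -1.46 in mature granule nuclei. In the NXPH1 cluster it was 0.17 and -1.14. In fibroblasts CXCL12 was -0.99 in the female and 0.34 in the male pair. CXCR4 was -0.0032 and 0.61 in mature granule nuclei and -0.076 and 0.25 in Bergmann glia. ACKR3 in PAX2+ interneurons was 1.48 in the female and -0.25 in the male pair. Each pair is 1 Control and 1 LPS fetus.

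Signal was also present in barcodes that entered no class. Barcodes under 500 genes held 54.9% of the CXCL12 UMIs, 72.7% of the CXCR4 UMIs and 69.6% of the ACKR3 UMIs of the 4 libraries. In empty droplets each gene was above the level of 3 counts in every library, which was 0.775 to 1.92 CPM.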

How the results depend on the processing

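Of 94 alternative values of the 13 log2 fold changes of LPS over Control with all libraries kept, 88 had the sign of the reported value, and no fold change was called under any alternative. CXCL12 in mature nuclei, reported at 0.00, was -0.033 without doublets, -0.022 with library totals and -0.42 with sex as a replicate block. CXCL12 in maturing nuclei was -0.10 with the block. CXCR4 in Bergmann glia was 0.28 with marker-score classes and 0.065 without doublets. The causes were not tested. With a library left out, the sexes were unbalanced between the groups and no term for sex was in the model. Leaving out single libraries, where the lone library of a group is assumed to vary like the others, gave ranges of -1.16 to 0.57 for CXCL12 in all nuclei, -1.31 to 0.93 in fibroblasts, 0.02 to 1.45 in endothelial cells, -1.0 to 0.64 in maturing, -1.89 to 0.80 in mature and -1.36 to -0.55 in precursor nuclei. For CXCR4 the ranges were -1.05 to 2.80 in all nuclei, -1.47 to 2.57 in precursors, -1.29 to 2.83 in committing nuclei, -1.56 to 1.80 in Bergmann glia and 0.06 to 3.77 in astrocytes. For ACKR3 they were 0.17 to 0.77 in all nuclei and 0.20 to 1.33 in PAX2+ interneurons.

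In the comparison of female with male libraries, chosen after the values were seen, leaving out single libraries (with exposure not in the model) gave 2.10 to 3.31 for CXCR4 in all nuclei, 2.50 to 3.07 in precursors and 2.30 to 3.33 in committing nuclei, 0.82 to 1.58 for CXCL12 in all nuclei, -0.42 to 1.05 in precursors, 2.07 to 2.51 in committing nuclei, 1.13 to 2.09 in fibroblasts and -1.62 to -0.54 in endothelial cells, and 0.18 to 0.77 for ACKR3. CXCL12 in fibroblasts was called with no filter (1.72), with exposure not in the model (1.67) and without either LPS library.

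The number of genes called, 0 in each reported fit, was 40 in fibroblasts, 11 in endothelial cells, 9 in committing, 5 in precursor nuclei and 3 in PAX2+ interneurons with no filter. DESeq2 called 4 in fibroblasts and 2 in maturing nuclei. With a library left out the counts were 0 to 77 in fibroblasts, 12 to 34 in endothelial cells, 19 to 77 in precursors, 0 to 25 in PAX2+ interneurons, and 0 in all nuclei, committing and maturing nuclei. With sex as a replicate block 2 genes were called in committing nuclei, and CXCR4 in all nuclei was 0.79 (SE 0.28, adjusted p = 0.999, edgeR). Libraries of the same sex deviated together from their group means (r = 0.81 over 16138 genes, and by construction -0.81 for the crossed pairs). They were also alike in mitochondrial share and UMIs per nucleus. The labels give no pairing of fetuses, so the design was not treated as paired. Of 39 alternative values of the 11 mean levels, 2 moved by more than 1 SD over the 4 libraries. Both were with marker-score classes, CXCL12 in endothelial cells to 29.995 CPM and ACKR3 in fibroblasts to 4.62 CPM. For CXCR4 this SD includes the difference between female and male libraries, so it is a wide limit. In committing nuclei it was 37.6 CPM beside a mean of 42.9 CPM. The fall of CXCR4 in astrocytes from 18.7 to 13.6 CPM with free RNA subtracted did not count as moved. The marker score does not separate granule stages or the NXPH1 cluster, and no value was made there. ACKR3 levels rest on 0 to 17 UMIs per class and library outside the granule lineage.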

Other observations

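ACKR1, an atypical chemokine receptor that binds many inflammatory chemokines, was the other chemokine receptor with most UMIs in nuclei, 3111 in all. It was highest in migrating granule nuclei, with 41.9, 49.2, 54.7 and 63.4 CPM in the female Control, male Control, female LPS and male LPS library. Both LPS libraries were above both Control libraries there. The share of all genes with such an order was not counted, so it is not read as an LPS difference. Over all nuclei, a different sum, the log2 fold change of ACKR1 was 0.67 (SE 0.36, adjusted p = 1.00, edgeR). In the fit of migrating nuclei edgeR called 0 of 11870 genes, with 30 at an unadjusted p under 0.05, and DESeq2 called 0. The count was 11 with no filter on low counts, 1 with sex as a replicate block and 1 without the female LPS library. In the reported fit none of the 43 pathway genes tested there was called by either tool. ACKR1 did not split by sex in that class, unlike CXCR4, which had 11.5, 2.41, 13.9 and 4.61 CPM there without subtraction. With free RNA subtracted, CXCR4 in migrating nuclei was 0.419, 1.95, 0.296 and 2.90 CPM, with both male libraries above both female ones.

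CX3CR1, CCR1 and the chemokine CCL3 were highest in microglia and macrophages. CX3CR1 had 491, 62.1, 399 and 407 CPM there, CCR1 56.9, 4.77, 64.0 and 70.5 CPM, and CCL3 105, 28.6, 117 and 10.9 CPM. For CX3CR1 and CCR1 the male Control library was the low one. CX3CR1 and CCL3 overlapped between the groups. CCR1 did not, but its female Control and female LPS values lay close, and it had only 72 UMIs in all nuclei. How many of all genes had groups that did not overlap was not counted, so this order is not read as an LPS difference. EdgeR called 0 of 5370 genes in this class, with 58 at an unadjusted p under 0.05, and DESeq2 called 0. The count was 6 with no filter on low counts, 9 without the male Control library, 11 without the male LPS library and 325 without the female LPS library. CXCL10 had 1 UMI and CCL19 1 UMI in all nuclei, and no UMI of CXCR3 or RAC2 was found.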
